A study of Mus musculus with 16 samples.

Results

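F4/80+ adipose tissue macrophages (ATMs) of IRF5-KO mice were compared between 12 and 4 weeks of a high-fat diet (HFD). The members are the 8 libraries labelled KO, 4 at 12wks (long-term, LT-HFD) and 4 at 4wks (short-term, ST-HFD), out of 16 libraries in all. The other 8 come from WT mice at the same 2 durations, and are used here only beside IRF5-KO values. Each library held RNA from macrophages sorted on F4/80 from the epididymal white adipose tissue (EpiWAT) of male mice. IRF5-KO mice carry a floxed Irf5 and Cre in the Lyz2 locus (LysM-Cre), which acts in myeloid cells and not in macrophages alone. All groups were fed the same diet and were of the same age range when it began, so mice on LT-HFD were also older, and diet duration and age cannot be told apart. The labels name no batch of sorting, library preparation or sequencing, and any such difference between the 2 durations cannot be told apart from duration either. Values are given in the order of replicates 1 to 4, and adjusted p-values measure the spread between these 4 libraries per duration.

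Adipose tissue holds resident macrophages, many of them perivascular cells that carry Lyve1, Timd4 and Cd163 and take up lipid and debris, and macrophages that arise from blood monocytes. As fat mass grows, macrophages gather around dying adipocytes, where lipid-associated macrophages express Trem2, Cd9 and lysosomal lipid-handling genes. Fibroblasts and preadipocytes, marked by Pdgfra, make the collagen matrix of the tissue. IRF5 is a transcription factor of the interferon regulatory factor family that acts downstream of Toll-like receptors in macrophages.

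The 4 ST-HFD libraries held 3910945 to 4791538 counts and the 4 LT-HFD libraries 3335550 to 3792898. The 3 features with the most counts, a microRNA locus and both mitochondrial ribosomal RNAs, took 18.7% to 24.1% of ST-HFD counts and 26.1% to 30.7% of LT-HFD counts. Library levels of the same duration correlated with Pearson's r of 0.946 to 0.979 across genes, and those of different durations with 0.890 to 0.932. Normalised over all 16 libraries, Irf5 stood at 250.4 to 274 CPM (counts scaled to a common library size) in IRF5-KO and 203 to 252 CPM in WT libraries on ST-HFD, and at 206 to 253 and 170.5 to 213 CPM on LT-HFD. The gene (ENSMUSG00000029771) spans 29526625 to 29541871 of chromosome 6 in GRCm38. Irf5 was thus not lower where the label says IRF5-KO, and counts summed over a whole gene cannot show a loss of single exons. IRF5-KO stands below for the libraries with that label. Lyz2, the locus that carries Cre, ranged from 1396 to 2062 CPM in IRF5-KO and from 2968 to 4043 CPM in WT libraries, with no overlap. In the WT libraries, mean Irf5 was lower and mean Ghitm higher where the label says 12wks than where it says 4wks. A scatter plot of WT mice in the study, read by eye, appears to place both genes the other way round by duration, and no such plot of IRF5-KO mice was used here. Which assignment matches the diets fed was not tested. All directions below follow the library labels.

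Between the durations, 30.3% of tested genes differed in IRF5-KO ATMs. Of 11018 genes that passed a filter on low counts, 1553 were higher (14.1%) and 1785 lower (16.2%) on LT-HFD at an adjusted p under 0.05, by the quasi-likelihood test of edgeR and the Benjamini-Hochberg adjustment. Log2 fold changes are LT-HFD over ST-HFD throughout, and their median over all tested genes was 0.04. Of the called genes, 607 rose and 572 fell by more than 1 on the log2 scale. All 4 LT-HFD values lay above all 4 ST-HFD values for 1601 genes (14.5%) and below them for 1714 (15.6%). The filter left out 26292 of the counted features. The plot of fold change against level shows the genes named in what follows.

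**Figure D1:**
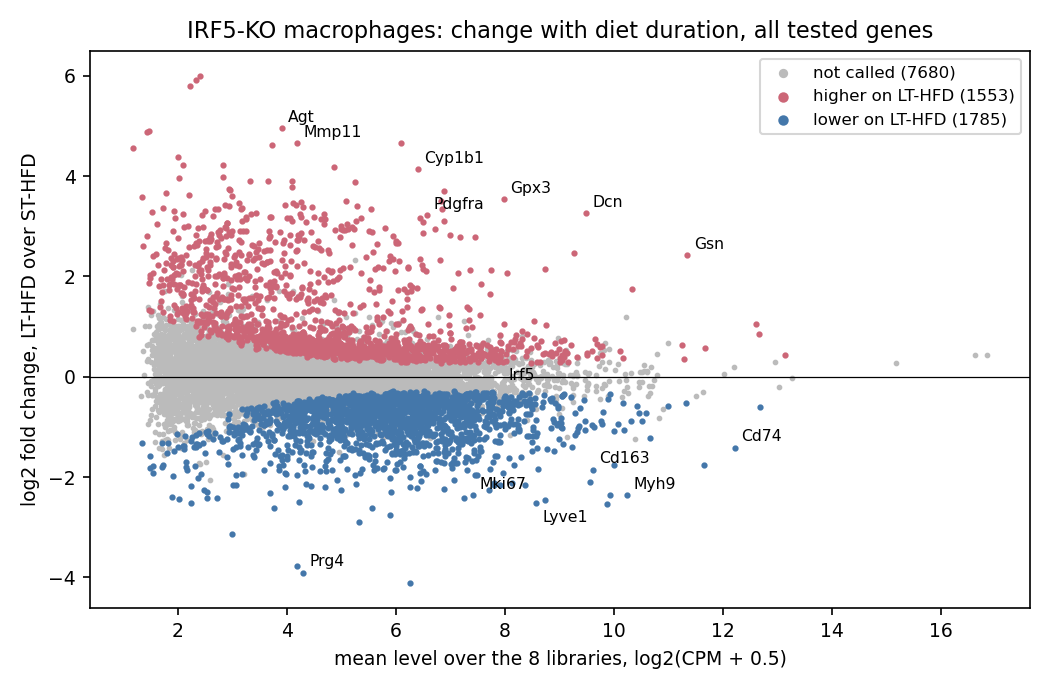
Log2 fold change (LT-HFD over ST-HFD, IRF5-KO) of each tested gene against its mean level over the 8 libraries, as log2(CPM + 0.5), with genes at an adjusted p under 0.05 in red (higher) or blue (lower). The 1553 higher and 1785 lower genes are marked, with Agt and Mmp11 among the highest, Prg4, Lyve1 and Myh9 far below 0, and Irf5 near 0.

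The direction of change was related to the length of the transcript. Tested protein-coding genes with a known transcript length were split by length into 10 bins of equal size. In the bin of the shortest transcripts the median log2 fold change was 0.31, with 25.6% called higher and 3.69% lower. In the bin of the longest it was -0.37, with 7.75% higher and 42.9% lower. The median deviation of a library from the average library in the longest bin, minus that in the shortest, was 0.33, 0.38, 0.42 and 0.19 on the log2 scale in the ST-HFD libraries and -0.20, -0.56, -0.34 and -0.25 in the LT-HFD libraries. The durations did not overlap in this measure, which is taken over genes of every function, and its part in single results was not tested. Calls also moved with level, over 10 bins of mean CPM of the same genes. The share called lower went from 3.12% in the lowest to 36.6% in the highest bin, and that called higher from 12.1% to 15.9%. The median log2 fold change was 0.23 in the lowest and -0.18 in the highest. The part of level in single results was not tested. A second fit with an offset per gene for transcript length and GC content, added after these values were seen, called 1380 genes higher and 1275 lower. It kept 1063 of the higher and 1103 of the lower calls, and 2 of the genes called in both fits were called in opposite directions. Its value is called the length-adjusted change below.

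**Figure D2:**
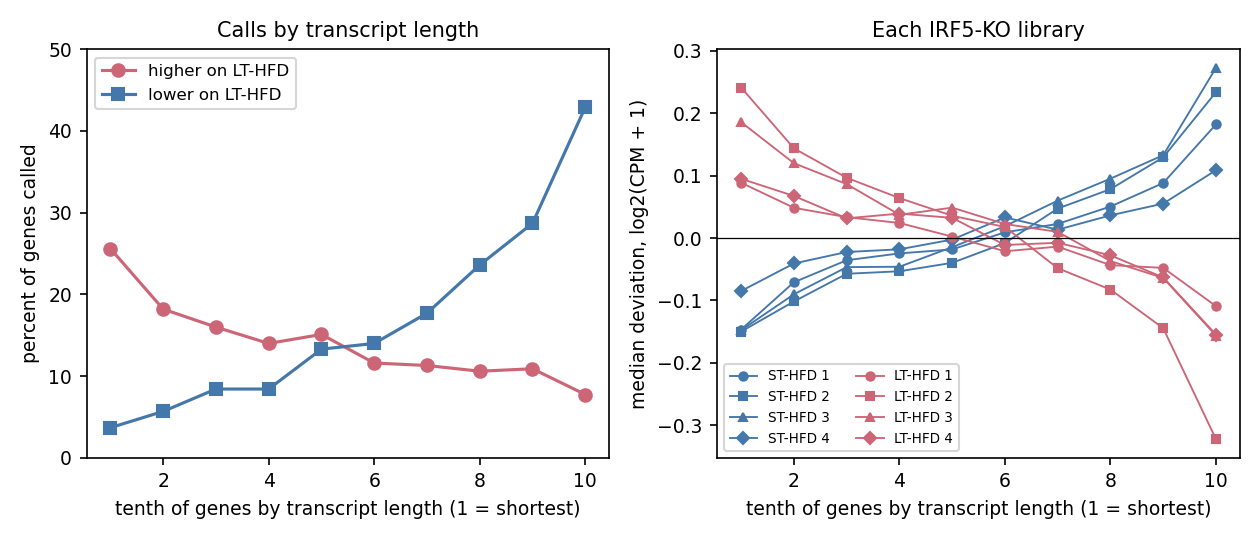
Left, percent of tested protein-coding genes called higher (red) and lower (blue) on LT-HFD in each of 10 bins of transcript length, from shortest to longest. Right, median deviation of each IRF5-KO library from the average library in the same bins, on the log2(CPM + 1) scale. Calls of lower genes go from 3.69% in the shortest to 42.9% in the longest bin, and the lines of the 4 ST-HFD and the 4 LT-HFD libraries slope in opposite directions.

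Among the 15 genes with the largest rise were several that encode secreted or matrix proteins. Mmp11, a matrix metalloproteinase of stromal cells, had 1.60, 1.03, 2.32 and 0.246 CPM on ST-HFD and 32.2, 33.4, 31.6 and 40.0 CPM on LT-HFD (log2 fold change 4.66, SE 0.32, adjusted p = 1.6e-06). Lum, the collagen-binding proteoglycan lumican, had 18.4, 23.2, 18.1 and 7.14 CPM on ST-HFD and 334, 119, 257 and 164 CPM on LT-HFD (log2 fold change 3.71, SE 0.43, adjusted p = 0.00042). The ranking itself required that the durations not overlap. LT-HFD replicate 2 was the lowest LT-HFD library for Lum but not for Mmp11. Agt, the angiotensin precursor made by adipocytes and their stromal progenitors, had 0, 1.29, 2.09 and 0.246 CPM on ST-HFD and 42.0, 13.3, 27.4 and 29.8 CPM on LT-HFD (log2 fold change 4.95, SE 0.62, adjusted p = 0.00038). Fst, the activin-binding protein follistatin, had 1.80, 0.257, 0.695 and 0.985 CPM on ST-HFD and 33.1, 8.69, 29.4 and 27.6 CPM on LT-HFD (log2 fold change 4.61, SE 0.53, adjusted p = 0.00014). Inmt, a methyltransferase, and Dpep1, a membrane dipeptidase, changed by 4.66 and 3.51 on the log2 scale. Bmper, which binds bone morphogenetic proteins, changed by 4.19 and Gpx3, the secreted glutathione peroxidase, by 3.54. Others were Cyp1b1, Entpd2, Scn7a, Srpx, Sult1e1 and Gstm2, with log2 fold changes of 3.49 to 4.13. Several of these genes had counts near 0 on ST-HFD, and a fitted fold change from so low a level depends on the prior count.

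Among the 15 genes with the largest fall under the same limits were the myosin heavy chains Myh9 and Myh10 and the cytoskeletal linker Plec. The lowest log2 fold change of any called gene was -4.10. Rrbp1, a ribosome-binding protein of the endoplasmic reticulum, had 678, 746, 758 and 706 CPM on ST-HFD and 137, 134, 117 and 138 CPM on LT-HFD (log2 fold change -2.45, SE 0.11, adjusted p = 2.0e-07). Myh9, the heavy chain of non-muscle myosin IIA, had 2159, 1862, 1989 and 2095 CPM on ST-HFD and 422, 382, 379.6 and 389 CPM on LT-HFD (log2 fold change -2.37, SE 0.11, adjusted p = 2.3e-07). Within each duration both genes were nearly level across libraries, and the durations stood far apart. Plec, which encodes plectin, had 2017, 1291, 1626 and 1473 CPM on ST-HFD and 334, 268, 244 and 262 CPM on LT-HFD (log2 fold change -2.53, SE 0.16, adjusted p = 1.1e-06). Its transcript is 15455 nt long, and its length-adjusted change was -1.03 (adjusted p = 0.0025). Myh9 kept -1.60 and Rrbp1 -1.96 with that adjustment. Cd300lh, of the CD300 family of leukocyte receptors, is short (852 nt) and had 19.2, 21.9, 21.5 and 20.4 CPM on ST-HFD and 4.17, 5.16, 3.67 and 3.41 CPM on LT-HFD (log2 fold change -2.32, SE 0.20, adjusted p = 7.5e-06). Prg4, the lubricant glycoprotein lubricin, changed by -3.90 and Dnase1l3, a secreted DNase of phagocytes, by -3.77, each with ST-HFD replicate 1 the lowest of its group. Myh10, Zfhx2, Hivep3, Zfhx3, Tcof1, Cgnl1 and Ankrd11 changed by -2.25 to -2.90, and by -1.33 to -2.34 with the length adjustment. Lyve1 and Mki67 are described with their groups.

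Fibroblast genes rose together. Of 15 fibroblast and preadipocyte markers, all tested, 13 rose and 0 fell, with a median log2 fold change of 2.46 beside 0.04 over all tested genes. The share that rose was 86.7% beside 14.1% of all tested genes. Pdgfra (ENSMUSG00000029231, chromosome 5 of GRCm38 from 75152292 to 75198215), the PDGF receptor that defines these cells, had 23.2, 18.5, 22.5 and 8.86 CPM on ST-HFD and 204, 95.1, 192 and 197 CPM on LT-HFD (log2 fold change 3.22, SE 0.34, adjusted p = 0.00022). Dcn, the matrix proteoglycan decorin, had 105, 180.5, 201 and 58.8 CPM on ST-HFD and 1602, 608, 1535 and 1495 CPM on LT-HFD (log2 fold change 3.27, SE 0.46, adjusted p = 0.0013). Gsn, the actin-severing protein gelsolin, which was among the most abundant of the 15, had 778, 845, 1072 and 582 CPM on ST-HFD and 5362, 2292, 5133 and 4850.2 CPM on LT-HFD (log2 fold change 2.43, SE 0.28, adjusted p = 0.00017). The remaining called markers were Col1a1, Col1a2, Col3a1, Lum, Pcolce, Clec3b, Dpt, Mfap5, Fap and Cd34, with log2 fold changes of 1.11 to 3.71. Pi16 and Fbn1 did not pass the test, at 1.32 (adjusted p = 0.093) and 0.52 (adjusted p = 0.40). The summed level of the 15 markers was 2408, 2913, 2585 and 1399 CPM on ST-HFD and 13826, 5838, 11074 and 11534 CPM on LT-HFD, with no overlap. LT-HFD replicate 2 was the lowest of its group for 12 of the 13 risen markers and ST-HFD replicate 4 for 12, against 39.9% and 32.8% of all genes called higher. Leaving out any 1 of the 8 libraries gave 13 to 14 risen markers. In sorted bulk samples, more or fewer cells of a type and more or less RNA per cell cannot be told apart.

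The promoters of a collagen gene and of Pdgfra are shown because both genes belong to the fibroblast group. Each run is the 250 bases before the RefSeq start on the plus strand of GRCm38.p6. Col1a2 lies at chr6:4505368-4505617 and Pdgfra at chr5:75152001-75152250, and capitals mark a match to 1 of the 10 motifs searched on both strands.
Col1a2: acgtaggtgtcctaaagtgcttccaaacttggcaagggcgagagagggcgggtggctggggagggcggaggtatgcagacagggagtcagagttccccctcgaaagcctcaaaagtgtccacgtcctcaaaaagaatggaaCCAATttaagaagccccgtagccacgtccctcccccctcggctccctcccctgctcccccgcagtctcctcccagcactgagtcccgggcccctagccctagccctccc
Pdgfra: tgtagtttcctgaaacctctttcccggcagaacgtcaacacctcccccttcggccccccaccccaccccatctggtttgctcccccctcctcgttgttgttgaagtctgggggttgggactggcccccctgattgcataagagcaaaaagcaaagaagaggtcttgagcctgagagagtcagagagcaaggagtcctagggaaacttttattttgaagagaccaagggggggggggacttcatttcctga
The Col1a2 promoter held 1 CCAAT box, whose first base lies 109 bases before the start. The Pdgfra window held none of the 10 motifs. CCAAT boxes were found in 34.4% of promoters of genes that rose, 33.1% of those that fell and 36.3% of all 8580 tested genes with a promoter in the table. The PU.1-type ETS motif GAGGAAGT was found in 1.51%, 2.67% and 2.62%, and the AP-1 motif TGANTCA in 4.72%, 3.94% and 4.18%. The NF-kappaB motif GGNNTTTCC was found in 5.52%, 4.08% and 5.07%, and the IRF motif GAAANNGAA in 7.03%, 5.91% and 6.53%. A heat shock element (GAANNTTC) was found in 4.9%, 4.36% and 4.88%. These shares are descriptions of letters in a window and not of bound sites.

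Most collagen genes rose, and several proteases of the matrix rose with them. Of 19 tested collagen chains out of 22, 13 rose and 0 fell (median 1.40), so that 68.4% rose beside 14.1% of all tested genes. The fibrillar chain Col1a2 had 223, 260.3, 179 and 98.0 CPM on ST-HFD and 1481, 681, 917 and 1109 CPM on LT-HFD (log2 fold change 2.46, SE 0.34, adjusted p = 0.00091). Col6a1, a chain of the microfibrillar collagen VI that surrounds adipocytes, had 91.1, 107, 78.1 and 50.7 CPM on ST-HFD and 356, 281, 243 and 299.8 CPM on LT-HFD (log2 fold change 1.85, SE 0.21, adjusted p = 0.00012). All 4 LT-HFD libraries lay above ST-HFD for both genes. ST-HFD replicate 4 was the lowest of its group for all 13 risen collagens, and LT-HFD replicate 1 the highest for 11. Their median transcript length was 6119 nt against 3472 nt over all tested genes, and the length adjustment raised the count to 15 and the median to 2.02. Of 16 tested matrix metalloproteinases and inhibitors, 7 rose and 2 fell (median 0.42), a share of 43.8% higher. Mmp14, the membrane-anchored collagenase, had 25.4, 34.2, 25.3 and 22.9 CPM on ST-HFD and 156, 98.9, 99.1 and 132 CPM on LT-HFD (log2 fold change 2.17, SE 0.18, adjusted p = 6.2e-06). Mmp2, a gelatinase of stromal cells, had 21.8, 23.4, 22.7 and 13.3 CPM on ST-HFD and 306, 90.4, 205 and 231 CPM on LT-HFD (log2 fold change 3.35, SE 0.38, adjusted p = 0.00038). Neither gene overlapped between durations. Mmp3, Mmp11, Mmp23 and the inhibitors Timp1 and Timp3 made up the rest of those that rose, at 1.86 to 4.66. Mmp13 fell by 1.37 and Adam9 by 0.31 on the log2 scale, and without ST-HFD replicate 2 neither was called (adjusted p of 0.11 and 0.078). Timp1 was not called without LT-HFD replicate 1 (adjusted p = 0.070). Mmp12, which macrophages secrete, did not pass the test (log2 fold change 0.50, SE 0.40, adjusted p = 0.38).

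Complement, chemokine and growth factor genes changed in both directions, at shares near those of all tested genes (14.1% higher and 16.2% lower). Of 19 tested complement genes 4 rose and 3 fell. C1s, a protease of the first complement component, had 24.2, 25.2, 33.8 and 12.8 CPM on ST-HFD and 240.1, 111, 196 and 199.5 CPM on LT-HFD (log2 fold change 2.95, SE 0.32, adjusted p = 0.00022). Serping1, its inhibitor, changed by 2.79, C1ra by 2.14 and C3, the central component, by 1.04. C4b, C6 and the receptor subunit Itgam changed by -0.88, -0.90 and -0.59, and C4b stood at -0.43 with the length adjustment (adjusted p = 0.10). The 3 C1q chains, which macrophages make, did not pass the test, at -0.20 to -0.33. With the length adjustment C1qb and C1qc were called lower, at -0.49 (adjusted p = 0.0086) and -0.50 (adjusted p = 0.016). C1qa was not (-0.38, adjusted p = 0.095), and 6 complement genes fell under that adjustment. C6 lost the call without any 1 of 6 libraries, with an adjusted p of up to 0.10. Without ST-HFD replicate 1 the number that fell rose from 3 to 7. Of 21 tested CC and CXC chemokines, 3 rose, and 3 fell. Ccl11, the eosinophil attractant eotaxin, had 7.41, 10.3, 10.9 and 2.46 CPM on ST-HFD and 49.7, 35.6, 58.1 and 73.5 CPM on LT-HFD (log2 fold change 2.80, SE 0.37, adjusted p = 0.00055). Cxcl12, which retains haematopoietic cells in stroma, changed by 1.13 and Cxcl14 by 1.78. Ccl22, an attractant of regulatory T cells, had 11.4, 48.9, 40.3 and 11.8 CPM on ST-HFD and 8.06, 5.16, 5.93 and 9.62 CPM on LT-HFD (log2 fold change -1.96, SE 0.55, adjusted p = 0.030). The other called falls were Ccl7 (-1.54) and Ccl12 (-1.45), both ligands of the monocyte receptor CCR2, while Ccl2, a ligand of the same receptor, stood at -0.75 (adjusted p = 0.15). With 1 library left out, the 3 falls had adjusted p-values of up to 0.10. The number that fell was 6 without ST-HFD replicate 4, 1 without ST-HFD replicate 2 or LT-HFD replicate 4, and 0 without ST-HFD replicate 3, LT-HFD replicate 2 or LT-HFD replicate 3. Among 25 tested fibrogenic and growth factor genes, Ctgf, Tgfb3, Plau and Tgfbr1 rose (0.83 to 1.79), and Fn1, Tgfb1 and Tgfbi fell (-0.66 to -1.76), though Tgfbr1 had an adjusted p of up to 0.077 with 1 library left out and 5 genes fell without ST-HFD replicate 1 or LT-HFD replicate 1. Fn1, the matrix protein fibronectin, which monocyte-derived cells also make, had 1363, 1728, 1705 and 1573 CPM on ST-HFD and 519.9, 406, 358 and 596 CPM on LT-HFD (log2 fold change -1.76, SE 0.17, adjusted p = 1.4e-05). Unlike the collagens it fell, and its length-adjusted change was -1.08. The summed fibroblast markers given above, which include Col1a1, Col1a2 and Col3a1, were higher in every LT-HFD library, and their part in the collagen, protease and complement results was not tested.

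**Figure D3:**
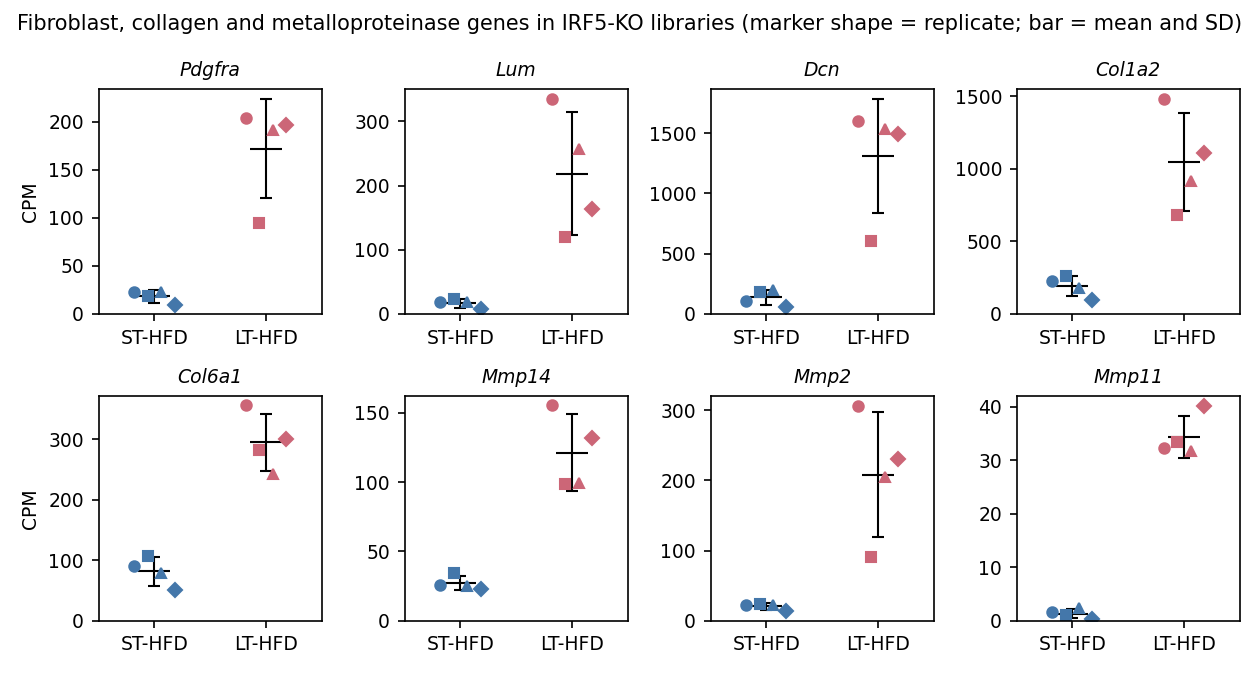
CPM (linear axis from 0) of Pdgfra, Lum, Dcn, Col1a2, Col6a1, Mmp14, Mmp2 and Mmp11 in each IRF5-KO library, with ST-HFD in blue and LT-HFD in red, marker shapes for replicates 1 to 4 (circle, square, triangle, diamond) and bars for the mean and SD of 4 libraries. The durations do not overlap for any of these 8 genes, and replicate 2 is the lowest LT-HFD point for 6 of them.

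Some resident macrophage genes fell, and most did not pass the test. Of 29 markers of resident and alternatively activated macrophages, all tested, 0 rose and 10 fell, with a median of -0.64. The share that fell was 34.5% beside 16.2% of all tested genes. Lyve1 (ENSMUSG00000030787, chromosome 7 of GRCm38 from 110850607 to 110863239), a hyaluronan receptor of perivascular macrophages, had 312, 759, 732 and 786 CPM on ST-HFD and 151, 65.7, 77.3 and 156 CPM on LT-HFD (log2 fold change -2.52, SE 0.40, adjusted p = 0.0021). Timd4, the phosphatidylserine receptor TIM-4 that marks long-lived resident macrophages, had 12.4, 25.5, 30.8 and 28.1 CPM on ST-HFD and 10.3, 2.44, 5.36 and 7.14 CPM on LT-HFD (log2 fold change -1.93, SE 0.39, adjusted p = 0.0045). Cd163, the haptoglobin-haemoglobin scavenger receptor, had 740.1, 1430.0, 1486 and 1263 CPM on ST-HFD and 328, 179.5, 238 and 619 CPM on LT-HFD (log2 fold change -1.85, SE 0.40, adjusted p = 0.010). None of these 3 genes overlapped between durations, and ST-HFD replicate 1 was the lowest of its group for each. Mgl2, a galactose-binding lectin, changed by -2.16, and Retnla, a product of interleukin-4-activated macrophages, by -2.35. Klf4, a transcription factor of alternative activation and also an immediate early gene, changed by -1.83, and Maf, a transcription factor of resident macrophages, by -0.98. Mrc1, the mannose receptor CD206, had 1930.0, 2861, 2715 and 2322 CPM on ST-HFD and 1745, 1351, 1507 and 1933 CPM on LT-HFD (log2 fold change -0.59, SE 0.16, adjusted p = 0.015), and its durations overlapped. Stab1, a scavenger receptor, and Il4ra, the interleukin-4 receptor, changed by -1.05 and -0.47, but with the length adjustment stood at -0.23 (adjusted p = 0.46) and 0.00 (adjusted p = 0.99). ST-HFD replicate 1 was the lowest ST-HFD library for 9 of the 10 fallen genes, and LT-HFD replicate 4 the highest LT-HFD library for 8, against 41.6% and 37.1% of all genes called lower. Leaving out single libraries gave 9 to 14 fallen genes.

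Of 9 tested MHC class II genes 5 fell and 0 rose, that is 55.6% lower beside 16.2% of all tested genes. Ciita, the master transactivator of these genes, had 126, 184, 201 and 150.1 CPM on ST-HFD and 59.7, 47.5, 43.7 and 54.0 CPM on LT-HFD (log2 fold change -1.69, SE 0.16, adjusted p = 1.3e-05). Cd74, the invariant chain, had 5520.4, 8147, 7755 and 6338 CPM on ST-HFD and 2482, 2797, 2328 and 2813 CPM on LT-HFD (log2 fold change -1.41, SE 0.15, adjusted p = 4.4e-05). H2-Eb1 and H2-Ab1, chains of the class II molecules, changed by -0.72 and -0.52, and H2-DMb2, a chain of H2-DM, by -1.80 from a low level. H2-Aa, H2-DMa and H2-DMb1 did not pass the test (-0.24 to -0.39), but had adjusted p-values of 0.048, 0.025 and 0.011 with the length adjustment. The count was 3 without ST-HFD replicate 2, ST-HFD replicate 3 or LT-HFD replicate 1. H2-Ab1 and H2-DMb2 had an adjusted p of up to 0.074 and 0.13 with 1 library left out. Dendritic cells also express class II genes, and 3 of 13 tested dendritic cell markers fell, while 0 rose (23.1% lower). Siglech, of plasmacytoid cells, had 7.01, 16.7, 18.8 and 11.3 CPM on ST-HFD and 3.06, 0, 0.282 and 2.79 CPM on LT-HFD (log2 fold change -3.13, SE 0.66, adjusted p = 0.0063), Naaa changed by -0.58 and Cd209a by -1.51 (adjusted p of up to 0.098 with 1 library left out). Without LT-HFD replicate 4, 5 dendritic cell markers fell. The 16 dendritic cell markers summed to 990.5 to 1093 CPM on ST-HFD and 891 to 985 CPM on LT-HFD. Their part in the class II values was not tested.

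Of the 16 macrophage identity genes, 6 fell and 2 rose, or 37.5% and 12.5% beside 16.2% lower and 14.1% higher over all tested genes. Csf1r, the receptor for the macrophage growth factor CSF1, had 1757, 1899, 2136 and 1839 CPM on ST-HFD and 1024, 906, 1043 and 1178 CPM on LT-HFD (log2 fold change -0.88, SE 0.12, adjusted p = 0.00025). Sfpi1, which encodes PU.1, changed by -0.51, the pan-leukocyte gene Ptprc (CD45) by -0.56, the integrin Itgam (CD11b) by -0.59 and Cx3cr1 by -1.06. Emr1, which encodes the sorting antigen F4/80, had 727, 531, 508 and 670.0 CPM on ST-HFD and 763, 997, 924 and 689 CPM on LT-HFD (log2 fold change 0.47, SE 0.16, adjusted p = 0.039), and the durations overlapped. Tyrobp, the adaptor DAP12, changed by 0.51. With the length adjustment neither gene was called, at 0.40 (adjusted p = 0.069) and 0.11 (adjusted p = 0.53), and without ST-HFD replicate 2 or 3 or LT-HFD replicate 2 or 3 neither passed. Cx3cr1 lost the call without any 1 of 5 libraries (adjusted p of up to 0.091) and with the length adjustment (adjusted p = 0.068). The number that fell was 10 without ST-HFD replicate 1 and 9 with the length adjustment. The whole list summed to 11308 to 12152 CPM on ST-HFD and 9239.6 to 9867 CPM on LT-HFD, and macrophage genes were abundant at both durations. The sum was lower in every LT-HFD library, while the sum of the fibroblast markers was higher in each.

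**Figure D4:**
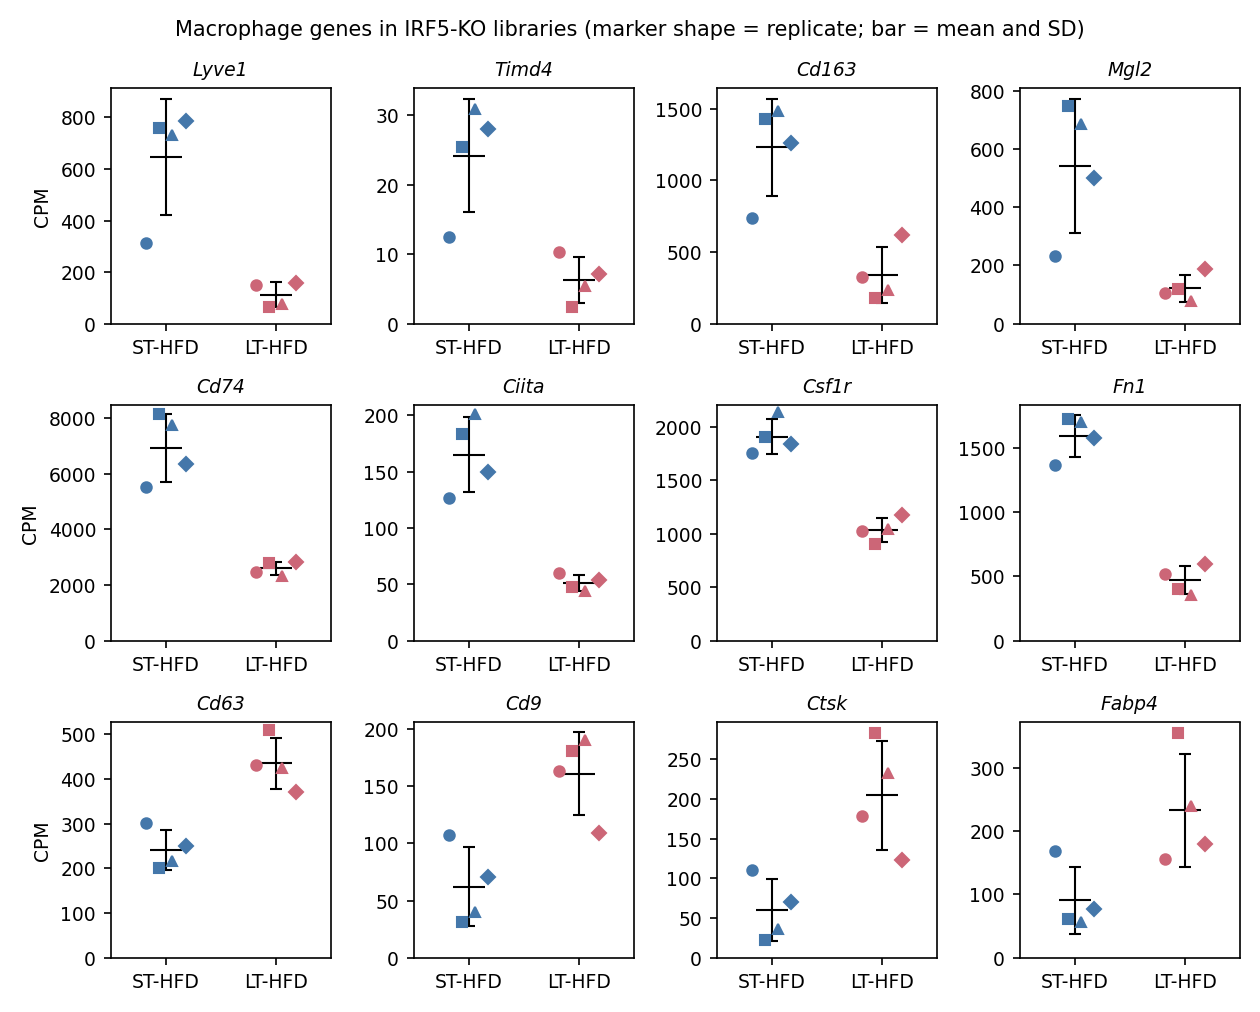
CPM (linear axis from 0) of resident, antigen presentation, growth factor receptor, matrix and lipid-associated macrophage genes in each IRF5-KO library, with ST-HFD in blue and LT-HFD in red, marker shapes for replicates 1 to 4 (circle, square, triangle, diamond) and bars for the mean and SD of 4 libraries. Lyve1, Timd4, Cd163, Mgl2, Cd74, Ciita, Csf1r and Fn1 are lower in all 4 LT-HFD libraries, Cd63, Cd9 and Ctsk are higher in all 4, and Fabp4 overlaps between durations.

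Most lipid-associated macrophage genes did not pass the test, and the ST-HFD libraries spread widely. Of 30 such genes, all tested, 8 rose and 1 fell, and 26 had a positive log2 fold change (median 0.56). The share that rose was 26.7% beside 14.1% of all tested genes. Cd63, a tetraspanin of late endosomes, had 301, 201, 216 and 249 CPM on ST-HFD and 432, 511, 425 and 372 CPM on LT-HFD (log2 fold change 0.85, SE 0.14, adjusted p = 0.00098). All 4 LT-HFD libraries were above every ST-HFD library. Ctsk, the collagen-degrading cathepsin K, had 109.9, 22.4, 35.9 and 70.6 CPM on ST-HFD and 178, 283, 233 and 123 CPM on LT-HFD (log2 fold change 1.77, SE 0.48, adjusted p = 0.026). Its call was lost without ST-HFD replicate 3, LT-HFD replicate 2 or LT-HFD replicate 3 (adjusted p of up to 0.076). Trem2, the lipid receptor that defines these cells, had 161, 37.1, 69.3 and 115 CPM on ST-HFD and 182, 262, 250.3 and 132 CPM on LT-HFD and did not pass the test (log2 fold change 1.11, SE 0.43, adjusted p = 0.085). ST-HFD replicate 1 was the highest of its group for 7 of the 8 risen genes and ST-HFD replicate 2 the lowest for 6. Apoe, the lipid carrier and the most abundant of the list, fell, at 8009, 8325, 7422 and 7873 CPM on ST-HFD and 5156, 6529, 4347 and 4848 CPM on LT-HFD (log2 fold change -0.60, SE 0.15, adjusted p = 0.0092). The number that rose was 4 without ST-HFD replicate 2 and 2 without ST-HFD replicate 3, LT-HFD replicate 2 or LT-HFD replicate 3, and 3 with the length adjustment.

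Most lysosomal, sterol and fatty acid genes did not pass the test. Over all tested genes 14.1% were higher and 16.2% lower, and the shares of each list stand beside these. Of 52 tested lysosome and TFEB genes 10 rose and 4 fell (19.2% and 7.69%, median 0.19). Lamp2, a lysosomal membrane protein, changed by 0.63, Naglu, a heparan sulphate hydrolase, by 0.67 and Ctso by 0.79. Tcfe3, which encodes the lysosomal transcription factor TFE3, had 95.9, 109.9, 109.6 and 97.2 CPM on ST-HFD and 45.9, 56.8, 46.3 and 54.9 CPM on LT-HFD (log2 fold change -1.02, SE 0.11, adjusted p = 5.6e-05). The number that rose was 5 or 6 without ST-HFD replicate 2 or 3 or LT-HFD replicate 2 or 3, and the number that fell was 2 without ST-HFD replicate 4 or LT-HFD replicate 1 and 1 without LT-HFD replicate 3. Of 21 tested cholesterol synthesis genes 5 (23.8%) rose, Dhcr7, Sc4mol, Sc5d, Fdft1 and Cyp51 (0.57 to 0.92), and 1 (4.76%), their regulator Srebf2, fell (log2 fold change -0.35, SE 0.12, adjusted p = 0.049). With the length adjustment Srebf2 stood at 0.19 (adjusted p = 0.28), and Sc4mol and Cyp51 were not called (adjusted p of 0.053 and 0.060). Between 0 and 3 rose when ST-HFD replicate 2, 3 or 4 or LT-HFD replicate 1, 2 or 3 was left out, and the adjusted p of single genes went up to 0.15. Of 27 tested fatty acid oxidation genes 7 rose and 2 fell (25.9% and 7.41%), and 2 rose with the length adjustment. The number that rose was 4 without ST-HFD replicate 2 or LT-HFD replicate 3, 3 without ST-HFD replicate 3 and 2 without LT-HFD replicate 2. Hadh and Echs1, enzymes of beta-oxidation, changed by 0.59 and 0.56 and kept 0.64 and 0.60 with that adjustment. Ppard, a nuclear receptor that drives these enzymes, changed by -1.19 and its coactivator Ppargc1b by -1.85. Of the receptors for apoptotic cells and lipoproteins, 8 of 23 tested fell and 3 rose (34.8% and 13%). Without ST-HFD replicate 1, 7 rose, and with the length adjustment 5 fell. Axl, a receptor tyrosine kinase for apoptotic cells, had 501, 349.8, 352 and 459 CPM on ST-HFD and 597, 692, 553 and 596 CPM on LT-HFD (log2 fold change 0.55, SE 0.14, adjusted p = 0.011). Lrp1, a large lipoprotein receptor, had 3135, 1474, 1992 and 2456 CPM on ST-HFD and 1035, 877, 1164 and 801 CPM on LT-HFD (log2 fold change -1.22, SE 0.22, adjusted p = 0.0015), but its transcript is 14888 nt long and its length-adjusted change was 0.04 (adjusted p = 0.93). Olr1, a receptor for oxidised lipoprotein, had 6.21, 15.96, 8.34 and 5.17 CPM on ST-HFD and 1.67, 1.09, 3.10 and 0.621 CPM on LT-HFD (log2 fold change -2.42, SE 0.50, adjusted p = 0.0033).

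Some NF-kappaB genes fell, and most inflammatory cytokine genes did not pass the test. Of 20 NF-kappaB subunits and feedback genes, all tested, 7 fell and 0 rose (median -0.54), with 35% lower beside 16.2% of all tested genes. Nfkb1, which encodes the p50 subunit, had 119, 138, 134 and 120.1 CPM on ST-HFD and 97.0, 78.2, 85.8 and 76.0 CPM on LT-HFD (log2 fold change -0.60, SE 0.11, adjusted p = 0.0017). Rela, Relb and Nfkb2, other subunits, changed by -0.55, -0.66 and -0.48, of which Nfkb2 became -0.09 (adjusted p = 0.65) and Rela -0.37 (adjusted p = 0.063) with the length adjustment. Tnip1 and Bcl3, regulators of the pathway, changed by -0.61 and -0.88, and Birc3 by -0.63. Birc3 and Nfkb2 had an adjusted p of up to 0.090 and 0.057 with 1 library left out. ST-HFD replicate 4 was the lowest of its group for 5 of the 7 genes, and without it 14 fell. Of 27 tested immediate early genes 4 fell and 1 rose, and the share that fell, 14.8%, was near that of all tested genes. Zfp36, which destabilises cytokine transcripts, had 1223, 1890.0, 1669.5 and 905 CPM on ST-HFD and 891, 680.1, 640.4 and 737 CPM on LT-HFD (log2 fold change -0.95, SE 0.21, adjusted p = 0.0067). Egr1 had 1697, 2527, 2614 and 678 CPM on ST-HFD and 899, 594, 635 and 1046 CPM on LT-HFD and did not pass the test, with an adjusted p just above 0.05. Without ST-HFD replicate 4 the number that fell was 12, and without LT-HFD replicate 1 it was 7. Immediate early genes also respond to tissue digestion and sorting, and the part of handling in these values was not tested. Of 16 tested inflammatory cytokines and mediators 4 (25%, beside 14.1% of all tested genes) rose, Csf1, Ptges, Saa3 and Tnfaip6 (1.64 to 3.42), in each of which LT-HFD replicate 2 was the lowest LT-HFD library, and Tgfb1 fell, while 3 fell without ST-HFD replicate 4 or LT-HFD replicate 1. Il1b stood at -1.95 (adjusted p = 0.055), Il6 at -0.38 (adjusted p = 0.67) and Nlrp3 at -0.95 (adjusted p = 0.077).

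Few interferon genes passed the test. Of 8 tested interferon regulatory factors, Irf2 fell (log2 fold change -0.67, SE 0.13, adjusted p = 0.0022) and none rose. Irf5 had 250.1, 254, 274 and 269.5 CPM on ST-HFD and 208, 254, 252 and 207 CPM on LT-HFD (log2 fold change -0.19, SE 0.11, adjusted p = 0.21). Of 39 tested interferon-stimulated genes 3 rose and 2 fell (median -0.08), or 7.69% and 5.13%. Both shares were below the 14.1% higher and 16.2% lower over all tested genes. The counts that rose and fell ranged from 0 to 7 and from 1 to 7 when 1 library was left out. The lowest and highest numbers that rose came without LT-HFD replicate 1 and without ST-HFD replicate 2, and the highest number that fell came without ST-HFD replicate 1. The 3 that rose were Cmpk2, Mnda and Usp18, and the 2 that fell were Parp14 and Gbp7. Parp14, an ADP-ribosyltransferase, changed by -1.08. Gbp7, a guanylate-binding protein, changed by -1.32 and lost the call without ST-HFD replicate 3 or LT-HFD replicate 2. Of 22 tested Toll-like receptors and adaptors 4 fell and 1 rose, and the share that fell, 18.2%, was near the 16.2% of all tested genes. Tlr9, which senses DNA, had 30.8, 52.3, 36.6 and 41.6 CPM on ST-HFD and 18.6, 17.1, 20.9 and 25.8 CPM on LT-HFD (log2 fold change -0.97, SE 0.19, adjusted p = 0.0022). Tlr5, Irak1 and Cd14 changed by -1.17, -0.52 and -0.37, and Tlr4, which senses lipopolysaccharide, by 0.37. The Cd14 and Tlr4 calls were lost without any 1 of 3 and 7 libraries (adjusted p of up to 0.080 and 0.16), and Tlr4 also with the length adjustment (adjusted p = 0.13). Of 11 Fc gamma receptors and their signalling genes 5 fell and 1 rose, or 45.5% and 9.09% beside 16.2% lower and 14.1% higher over all tested genes. The inhibitory receptor Fcgr2b had 216, 446, 378 and 344 CPM on ST-HFD and 160.1, 174, 137 and 203 CPM on LT-HFD (log2 fold change -1.04, SE 0.20, adjusted p = 0.0036). The phosphatase Inpp5d, the kinase Sykb and the kinases Lyn and Fgr changed by -0.96, -0.91, -0.42 and -0.74, and the activating receptor Fcgr4 by 0.74. Fgr lost its call without any 1 of 3 libraries and Fcgr4 without any 1 of 7 (adjusted p of up to 0.071 and 0.15), and Fcgr4 also with the length adjustment (adjusted p = 0.19).

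Most chaperone and stress response genes did not pass the test. Of 21 tested heat shock chaperones 7 fell and 2 rose, or 33.3% and 9.52% beside 16.2% lower and 14.1% higher over all tested genes. Hsp90ab1, a cytosolic HSP90, had 1827, 1762, 1709.8 and 1707 CPM on ST-HFD and 1074, 1135, 1000.2 and 1063 CPM on LT-HFD (log2 fold change -0.71, SE 0.11, adjusted p = 0.00037). Stip1, its co-chaperone, had 71.1, 64.9, 70.4 and 66.2 CPM on ST-HFD and 39.5, 39.9, 35.8 and 41.0 CPM on LT-HFD (log2 fold change -0.80, SE 0.10, adjusted p = 0.00016). The 4 libraries of each duration lay close together for both genes. Hsf1, the transcription factor of the heat shock response, changed by -0.92, and Bag3, Hsp90aa1, Hspa4l and Hspa1a by -0.51 to -1.61, of which Hspa1a had an adjusted p of up to 0.068 with 1 library left out, and Hspa1a and Hspa4l of 0.054 and 0.082 with the length adjustment. Without LT-HFD replicate 2, 4 rose. Hspb8, a small heat shock protein, had 3.80, 4.63, 3.01 and 1.48 CPM on ST-HFD and 35.0, 14.1, 29.1 and 38.8 CPM on LT-HFD (log2 fold change 3.16, SE 0.37, adjusted p = 0.00012), which is the opposite direction. Of 28 tested genes of the integrated stress and unfolded protein responses 7 fell and 2 rose (25% and 7.14%). Hsp90b1, the HSP90 of the endoplasmic reticulum, had 724, 748, 578 and 705 CPM on ST-HFD and 367, 389, 319 and 374 CPM on LT-HFD (log2 fold change -0.93, SE 0.12, adjusted p = 0.00013). Pdia4, Pdia6, Hspa5, Dnajc3 and Ern1 changed by -0.35 to -0.73, while Xbp1 and Atf5, transcription factors of these responses, changed by 0.39 and 0.82. Ern1 and Xbp1 had adjusted p-values of 0.14 and 0.12 with the length adjustment. Neither rise was called without ST-HFD replicate 4, LT-HFD replicate 1, LT-HFD replicate 3 or LT-HFD replicate 4, and the number that fell was 4 without ST-HFD replicate 2.

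Genes of the ribosome and of the respiratory chain rose by small amounts and in large numbers. Of 80 tested cytosolic ribosomal protein genes 65 rose and 0 fell (median 0.47), a share of 81.2% higher beside 14.1% of all tested genes. Rps14 had 153, 145, 175 and 187 CPM on ST-HFD and 318, 337, 400.5 and 317 CPM on LT-HFD (log2 fold change 1.06, SE 0.12, adjusted p = 5.9e-05). Rps3 had 314, 296, 316 and 309 CPM on ST-HFD and 474, 531, 568 and 456 CPM on LT-HFD (log2 fold change 0.72, SE 0.11, adjusted p = 0.00035). The durations did not overlap for either. These genes are short, with a median of 1107.5 nt, and with the length adjustment 29 rose and 3 fell, with a median of 0.20. Many of them also have near-identical pseudogenes that may share reads. Of 74 tested nuclear-encoded genes of the respiratory chain 38 rose and 0 fell (51.4% higher, median 0.41), and 11 rose and 2 fell with the length adjustment. Ndufv1, a core subunit of complex I, had 41.5, 33.2, 39.6 and 41.6 CPM on ST-HFD and 79.5, 71.4, 73.9 and 69.2 CPM on LT-HFD (log2 fold change 0.91, SE 0.11, adjusted p = 0.00012). Cox4i1, of complex IV, changed by 0.62 and Atp5c1, of the ATP synthase, by 0.72. The number that rose was 24 without ST-HFD replicate 3, 21 without LT-HFD replicate 2 and 22 without LT-HFD replicate 3.

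Mitochondrially encoded transcripts changed in both directions. Of 8 tested, 4 fell and 1 rose, or 50% and 12.5% beside 16.2% lower and 14.1% higher over all tested genes. The complex I transcript mt-Nd4 had 462, 709.7, 853 and 471 CPM on ST-HFD and 283, 326, 325 and 399 CPM on LT-HFD (log2 fold change -0.91, SE 0.20, adjusted p = 0.0065). ST-HFD replicates 2 and 3 were well above replicates 1 and 4 for this gene. The changes of mt-Nd5, mt-Nd6 and mt-Cytb were -0.89, -0.50 and -0.59, and that of mt-Nd3, the shortest, was 0.73 (0.30 with the length adjustment, adjusted p = 0.36). Only 2 fell without ST-HFD replicate 2, ST-HFD replicate 3, LT-HFD replicate 1, LT-HFD replicate 2 or LT-HFD replicate 3. Of 26 genes of mitochondrial cristae and dynamics 10 rose and 2 fell (38.5% and 7.69%), and 5 and 1 with the length adjustment. Yme1l1, an inner membrane protease, changed by 0.52, Mff and Fis1, which act in fission, by 0.56 and 0.64, and Opa1, the fusion GTPase, by -0.44, of which Fis1 and Opa1 had adjusted p-values of 0.079 and 0.066 with the length adjustment. Ghitm, an inner membrane protein that maintains cristae and that the study follows, had 78.7, 53.5, 50.5 and 39.4 CPM on ST-HFD and 78.1, 89.6, 71.4 and 79.8 CPM on LT-HFD (log2 fold change 0.52, SE 0.18, adjusted p = 0.0495). It was called without ST-HFD replicate 1, and without each of the other 7 libraries its adjusted p was up to 0.15. The call was also lost with DESeq2, with RLE size factors, with library totals, under the replicate block and with the length adjustment (0.37, adjusted p = 0.16). The number of cristae genes that rose was 5 or 6 without ST-HFD replicate 2, ST-HFD replicate 3, LT-HFD replicate 1, LT-HFD replicate 2 or LT-HFD replicate 3. Of 20 tested antioxidant genes 7 rose and 1 fell (35% and 5%). Gpx4, which reduces lipid peroxides, had 73.5, 59.7, 75.3 and 88.6 CPM on ST-HFD and 114, 148, 141 and 119 CPM on LT-HFD (log2 fold change 0.81, SE 0.14, adjusted p = 0.00086), Prdx1, Prdx6, Sod1, Txn1, Gpx1 and Gsr changed by 0.52 to 0.74, and Hmox1, the haem oxygenase, by -0.48. Of these, Txn1, Gpx1, Gsr and Hmox1 had adjusted p-values of up to 0.056, 0.082, 0.13 and 0.063 with 1 library left out, and Gpx1, Gsr and Txn1 of 0.15, 0.063 and 0.13 with the length adjustment. Without LT-HFD replicate 3, 4 antioxidant genes rose.

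**Figure D5:**
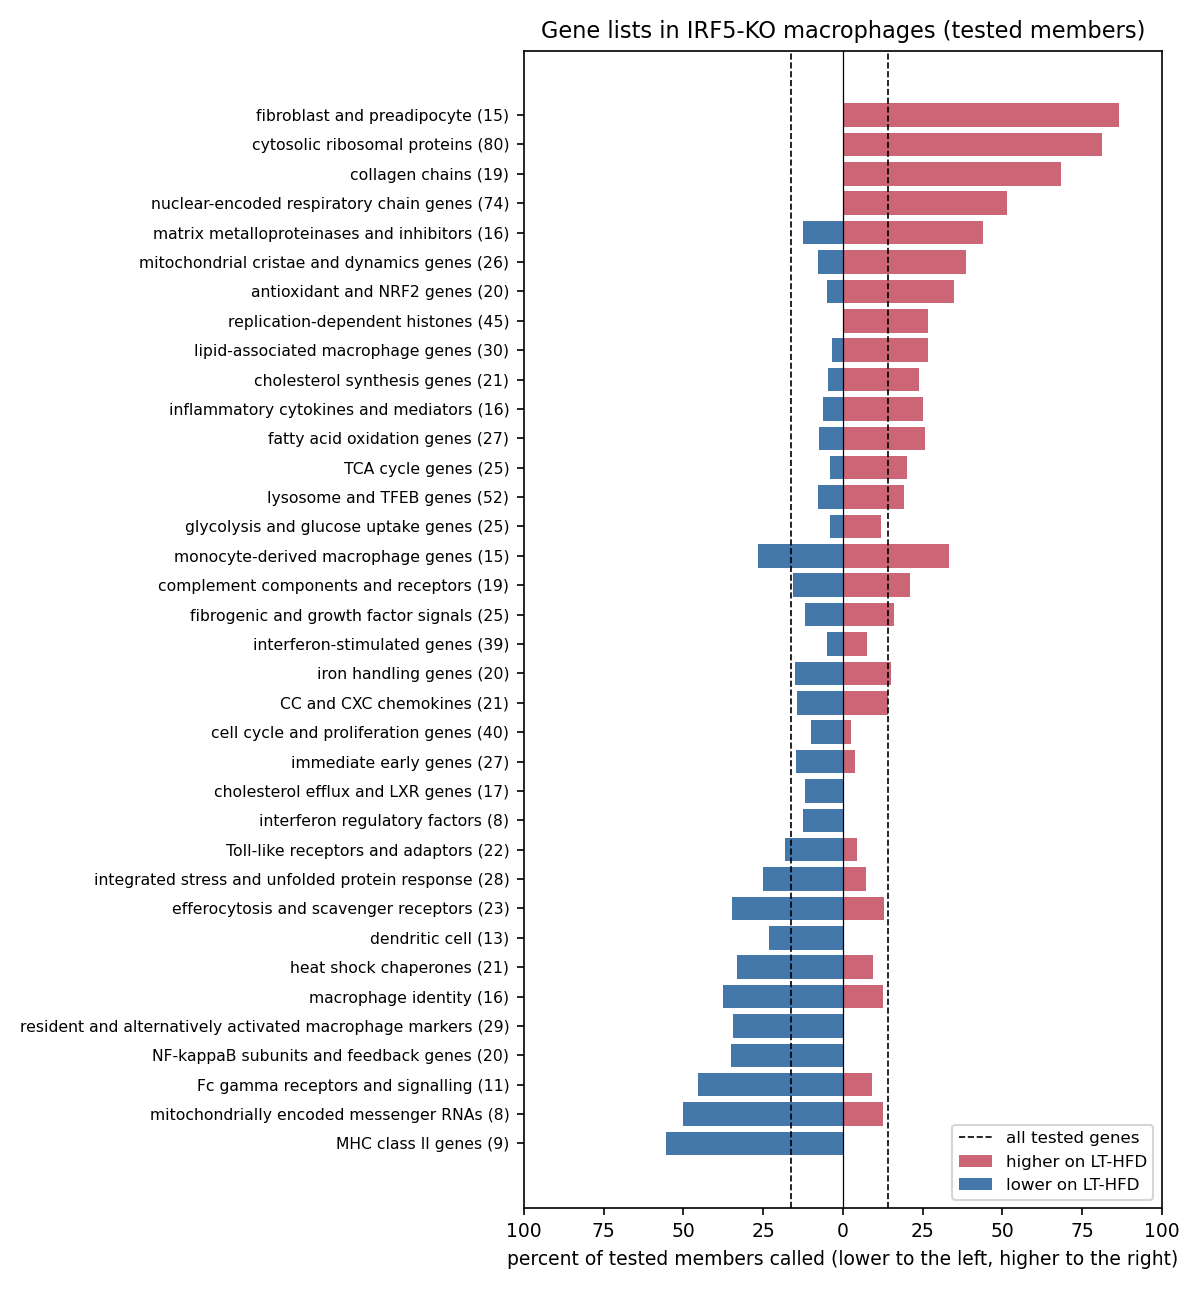
Percent of tested members called higher (red, to the right) and lower (blue, to the left) on LT-HFD in each gene list with at least 8 tested members, whose number stands in brackets, with dashed lines at the percent of all tested genes. Fibroblast markers, ribosomal proteins and collagens have the highest shares of risen genes, and MHC class II genes and mitochondrially encoded transcripts the highest shares of fallen genes.

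Most proliferation genes did not pass the test. Of 40 tested cell cycle genes 4 fell and 1 rose (median -0.04). These shares, 10% and 2.5%, were below the 16.2% and 14.1% of all tested genes. Mki67, which encodes the proliferation marker Ki-67, had 349, 282, 211 and 299 CPM on ST-HFD and 65.9, 62.5, 57.0 and 37.2 CPM on LT-HFD (log2 fold change -2.36, SE 0.20, adjusted p = 1.2e-05). Cenpf and Cenpe, kinetochore proteins, changed by -2.20 and -1.88, and Kif23, a motor of cytokinesis, by -1.03. Their transcripts are 3398 to 11130 nt long, and their length-adjusted changes were -1.10 to -1.85. Cenpa, a centromeric histone, rose (log2 fold change 0.62, SE 0.19, adjusted p = 0.026). Its adjusted p went up to 0.094 with a library left out. Top2a, a topoisomerase of dividing cells, had 106, 85.2, 54.5 and 128 CPM on ST-HFD and 53.1, 74.7, 68.6 and 41.9 CPM on LT-HFD and did not pass the test (log2 fold change -0.65, SE 0.27, adjusted p = 0.099). Of 45 tested replication-dependent histone genes 12 rose and 0 fell (26.7% higher), and all 45 had a positive log2 fold change (median 0.55). Hist1h2bb had 18.0, 19.6, 15.3 and 29.5 CPM on ST-HFD and 27.0, 38.8, 53.3 and 38.2 CPM on LT-HFD (log2 fold change 0.93, SE 0.24, adjusted p = 0.012), and was not called with the length adjustment (adjusted p = 0.077). ST-HFD replicate 3 was the lowest of its group for 11 of the 12 genes. The number that rose was 23 without ST-HFD replicate 4, 3 to 5 without ST-HFD replicate 2 or 3 or LT-HFD replicate 2 or 3, and 4 with the length adjustment. Histone genes of this class are near-identical in sequence and may share reads, and most of their transcripts lack a poly(A) tail, which total RNA libraries also capture.

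Markers of other cell types were measured for the cells that the sort could hold. Over all tested genes 14.1% were higher and 16.2% lower. Few members of each list were tested, so the counts below are descriptions only. Adipocyte markers summed to 35.7 to 61.0 CPM on ST-HFD and 22.0 to 50.2 CPM on LT-HFD, with none of 4 tested called. Endothelial markers summed to 21.7 to 119 and 44.8 to 103 CPM, and 1 of 6 tested rose, Tek, a share (16.7%) near that of all tested genes. The 9 mesothelial markers summed to 6.81 to 13.4 and 9.78 to 24.6 CPM, and only 2, Wt1 and Rspo1, passed the filter on low counts. Both were called higher. Genes so low can pass the filter through the LT-HFD group alone, so their share has no weight. Mural cells showed Pdgfrb higher (2.95) and Myh11 lower (-2.31, adjusted p of up to 0.066 with 1 library left out and 0.083 with the length adjustment) among 6 tested, and without ST-HFD replicate 1, 3 rose. T cell, neutrophil, eosinophil and erythroid markers summed to at most 39.9, 42.5, 15.96 and 6.95 CPM in any library, with 1 called gene among them, Csf3r, which fell (-0.81) but was not called without ST-HFD replicate 2, LT-HFD replicate 1 or LT-HFD replicate 3 (adjusted p of up to 0.056). Ly6g, Ngp, Camp, Elane, Epx, Il5ra and Muc16 had no count in any of the 8 libraries. B and plasma cell markers summed to 159 to 355 and 233 to 420.2 CPM, and NK and innate lymphoid markers to 91.9 to 160.4 and 114 to 138 CPM. Of 5 tested B and plasma cell markers Igkc rose (1.75), and DESeq2 called 3 higher. The Igkc call was lost without ST-HFD replicate 4 or LT-HFD replicate 1, 2 or 4 (adjusted p of up to 0.077) and with the length adjustment (adjusted p = 0.14). Of 3 tested NK and innate lymphoid markers Rora rose (0.99) and Il1rl1 fell (-0.83). Mast cell markers summed to 2.06 to 3.48 CPM on ST-HFD and 9.23 to 27.5 CPM on LT-HFD, without overlap, but no member passed the filter on low counts in the fit of all 8. DESeq2 on the same 8 libraries called 4 members higher. Without any 1 of the ST-HFD libraries, edgeR called 2 higher. The filter follows the size of the smaller group, so members could then more easily pass it through the LT-HFD group alone. The edgeR calls are therefore no separate support for a rise. Among all these lists, fibroblast markers had the highest sum.

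The same contrast was fitted in the WT libraries, and it shares no library with the IRF5-KO contrast. There, 1113 genes (10.2%) were higher and 1323 (12.1%) lower. Of 10765 genes tested in both, 828 were called higher in both, 56% of the IRF5-KO and 75.4% of the WT calls. Called lower in both were 1126, 63.4% of the IRF5-KO and 85.2% of the WT calls, and no gene was called in opposite directions. The difference between the genotypes in the change with duration, tested as an interaction over all 16 libraries, was called for 0 of 11560 genes (0%) by edgeR, and for 0 by DESeq2. Before adjustment 431 genes had a p under 0.05, and the smallest adjusted p was 0.981. Fibroblast markers had medians of 2.46 in IRF5-KO and 2.56 in WT, and collagens 1.40 and 1.34. Resident macrophage markers had medians of -0.64 and -0.12, MHC class II genes -0.52 and -0.27, and NF-kappaB genes -0.54 and -0.10. Replication-dependent histones had medians of 0.55 in IRF5-KO and -0.31 in WT. Cd163 changed by -1.85 in IRF5-KO and -0.93 in WT (interaction -0.91, SE 0.51). Olr1 changed by -2.42 and -0.02 (interaction -2.39, SE 0.68). Hist1h2bb changed by 0.93 and -0.41 (interaction 1.36, SE 0.39). The 5 genes of smallest interaction p were Tns4, 4732471D19Rik, Sh2d1b1, Slc45a3 and Foxn3, with adjusted p-values of 0.981. None of these differences between genotypes passed the adjustment for the number of genes.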

How the data were processed

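RNA of F4/80+ ATMs was sequenced as ribodepleted total RNA from 10 ng with the stranded SMARTer Pico v2 kit, and the deposited values are raw read counts per gene, which the authors made by alignment with STAR 2.7.3a to mm10. The submitters' processing notes also list fastp 0.19.11 and mm9 with no role. The annotation release and strand setting are not given in the sources used here, so reads of a gene and of an overlapping antisense gene may share counts.

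Counts of the 8 IRF5-KO libraries were filtered with filterByExpr, scaled by TMM and tested with the robust quasi-likelihood test of edgeR 4.0.16 in R 4.3.3, at a Benjamini-Hochberg adjusted p under 0.05. CPM were computed from the same scaling, and standard errors are the absolute log2 fold change over the square root of the quasi-likelihood F. The 8 WT libraries were fitted alone in the same way, and the interaction over all 16. The labels name replicates only by number, so p-values measure the spread between libraries, which may be technical. All pairs of libraries differed by more than counting noise.

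Members and gene lists were chosen with earlier results of these data known. Genes were named by rule: those the study names for these libraries, the 15 genes of largest change per direction with non-overlapping groups and at least 10 CPM, up to 4 per list and direction by smallest p, the 5 of smallest interaction p and the first 3 markers of each other cell type. Other members were named after their values were seen, and a few genes that meet the rule are not reported here. Lengths, GC content and coordinates came from GENCODE M21 (GRCm38), which matched 32620 of 37310 features and 1107 of 1109 list entries, and promoters from RefSeq. Alternatives were DESeq2 1.42.0, other scaling and filters, the replicate block, single libraries left out and, added after the data were seen, offsets from a loess trend (span 0.3) of each library over length and GC content. Scripts were tested on simulated data.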

Additional observations from a re-analysis of the deposited data

Results flagged for a closer look

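In groups of 4 libraries, 476 sets of CPM values were checked for a library that stands apart by Dixon's 95% criterion, and 21 met it. Chance gives about 1 in 20.

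LT-HFD replicate 2 stood apart 8 times. It was the lowest of its group for Dcn (608 CPM), Gsn (2292), Pdgfra (95.1), Sult1e1 (12.2) and C6 (8.42), and the highest for Itgam (438), Sfpi1 (196) and Echs1 (30.1). The other 3 LT-HFD libraries held 1495 to 1602 CPM of Dcn and 192 to 204 CPM of Pdgfra. Echs1 met the criterion with a small gap, as the others held 29.1 to 29.2 CPM. LT-HFD replicate 4 was the highest for Cxcl12 (125 CPM) and Tlr5 (31.7) and the lowest for Kif23 (13.7). LT-HFD replicate 1 was the highest for Il1b (8.06 CPM, beside 1.63 to 2.48 in the others) and Timp1 (12.2, beside 4.23 to 5.43).

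On ST-HFD, replicate 1 was the lowest for Lyve1 (312 CPM, beside 732 to 786 in the others), C1qc (1064) and C4b (868), and the highest for Prdx6 (28.2) and Slc45a3 (1.40). ST-HFD replicate 4 was the lowest for Mmp2 (13.3 CPM) and the highest for Tlr4 (84.4), and ST-HFD replicate 3 the lowest for Fcgr4 (8.81). Without LT-HFD replicate 2 the summed fibroblast markers of the LT-HFD group ranged from 11074 to 13826 CPM, and 13 to 14 of the 15 markers were still called higher whichever library was left out.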

How the results depend on the processing

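In the IRF5-KO contrast, DESeq2, RLE size factors, library totals, no filter, a mean count of at least 20, removal of the mitochondrial features and of the abundant microRNA locus, a fit of all 16 libraries and the length and GC offsets gave 1313 to 1778 genes higher and 1275 to 1980 lower. A further limit on the absolute log2 fold change of over 1 left 607 and 572. Library totals took the split from 1553 against 1785 to 1313 against 1905, and moved the median of all tested genes from 0.04 to 0.01. With single libraries left out, 981 to 1606 genes were higher and 1440 to 1858 lower, and the 981 came without LT-HFD replicate 3, with 3 libraries against 4. Under the replicate block 984 were higher and 1354 lower, with fewer residual degrees of freedom. Replicate numbers did not pair the libraries, as deviations of same-numbered libraries had correlations of -0.05, -0.39, -0.02 and -0.21 over 9737 genes, and the numbers only name libraries. The interaction called 0 genes under every alternative run, replicate block and 16 libraries left out in turn included. In WT, 2436 genes were called, 2178 under the replicate block and 1874 to 2236 with 1 library left out.

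Of 217 called genes with a printed value, 145 kept the call under every alternative that gave them a value, 58 lost it without at least 1 library, with an adjusted p of up to 0.18, 48 under the replicate block and 35 with the offsets. The direction turned with the offsets for Lrp1 (0.043), Srebf2 (0.19) and Fasn (0.37). A value that had not passed the test turned for Il6 without ST-HFD replicate 2 (0.048, and down to -0.91 without other libraries). The cause of these turns was not tested.

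Libraries of 3335550 to 4791538 counts limit genes of low level, and 26292 features were not tested. Diet duration, age and any batch of sorting or sequencing cannot be told apart. The shift of long against short transcripts between the durations touches ribosomal, respiratory chain and histone genes, which are short, and the largest falls, many of them in long transcripts. Bulk values do not separate cell numbers from RNA per cell.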

Other observations

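Genes that mark monocyte-derived macrophages changed in both directions. Of 15 tested, 5 rose and 4 fell on LT-HFD in IRF5-KO ATMs (median log2 fold change -0.10), by edgeR's test as above. These shares, 33.3% and 26.7%, stand beside 14.1% higher and 16.2% lower over all tested genes. LT-HFD replicate 2 was the lowest LT-HFD library for 4 of the 5 risen genes, as it was for 12 of the 13 risen fibroblast markers. All 15 fibroblast markers summed to 1399 to 2913 CPM on ST-HFD and 5838 to 13826 CPM on LT-HFD. Their part in these values was not tested. Ccr2, the chemokine receptor that draws monocytes into tissue, had 138, 156, 151 and 212 CPM on ST-HFD and 108, 57.6, 117 and 96.8 CPM on LT-HFD (log2 fold change -0.79, SE 0.21, adjusted p = 0.018). Plac8, a gene of classical monocytes, rose from a low level (log2 fold change 1.67, SE 0.40, adjusted p = 0.0083). Ly6c1, which monocytes share with endothelial cells and fibroblasts, changed by 2.04, Hp, the haptoglobin gene, by 1.56, Ace, the angiotensin-converting enzyme, by 2.10 and S100a6 by 0.64. Itga4, an integrin of leukocyte adhesion, changed by -0.74 and F10, which encodes coagulation factor X, by -0.87. The fibronectin gene Fn1 is the remaining member that fell. Ly6c1 and F10 had adjusted p-values of up to 0.077 and 0.12 with 1 library left out, and Ly6c1 and S100a6 of 0.076 and 0.11 with the length adjustment.

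Iron handling genes changed at shares near those of all tested genes (14.1% higher and 16.2% lower). Of 20 tested 3 rose and 3 fell. Tfrc, the transferrin receptor, had 42.3, 127, 109 and 62.0 CPM on ST-HFD and 32.0, 43.2, 28.5 and 26.4 CPM on LT-HFD (log2 fold change -1.38, SE 0.35, adjusted p = 0.018). Steap4, a metalloreductase of adipose tissue that stromal cells also express, had 11.8, 10.8, 15.99 and 5.66 CPM on ST-HFD and 113, 32.6, 97.1 and 88.4 CPM on LT-HFD (log2 fold change 2.89, SE 0.43, adjusted p = 0.0016), Steap3, a related reductase, changed by 0.97 and Blvra, a biliverdin reductase, by 0.57. Of 25 tested genes of glycolysis and glucose uptake 3 (12%) rose, the glucose transporter Slc2a1 (0.80), Ldhb (1.46) and Pfkfb4 (0.41), and the hexokinase Hk1 fell (-0.78). Of 25 tested genes of the tricarboxylic acid cycle 5 (20%) rose, Suclg1, Sdhc, Sdhd, Mdh1 and Pdha1 (0.35 to 0.72), and Idh2 fell (-0.34). Of 17 tested genes of cholesterol efflux none rose, and Apoe and the fatty acid synthase gene Fasn fell (-0.60 and -0.68). Fasn turned to 0.37 with the length adjustment, under which 2 genes of the tricarboxylic acid cycle and 5 of glycolysis rose, and Blvra, Suclg1, Mdh1 and Pdha1 had adjusted p-values of 0.25, 0.17, 0.22 and 0.19. Several of these counts rested on single libraries. The rises in glycolysis numbered 5 without ST-HFD replicate 1, 1 without ST-HFD replicate 3 or LT-HFD replicate 2, and 0 without LT-HFD replicate 3. Those in the tricarboxylic acid cycle numbered 3 without ST-HFD replicate 4 or LT-HFD replicate 4 and 2 without any of the others except ST-HFD replicate 1. Without ST-HFD replicate 1, 5 iron handling and 2 cholesterol efflux genes rose, and without ST-HFD replicate 3, 1 iron handling gene fell. With 1 library left out, adjusted p-values went up to 0.051 for Tfrc, 0.15 for Blvra, 0.081 for Slc2a1, 0.051 for Ldhb, 0.14 for Pfkfb4, 0.069 for Fasn, 0.081 for Idh2, 0.18 for Suclg1, 0.13 for Mdh1 and 0.13 for Pdha1.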
